A study of Homo sapiens with 48 samples.

Results

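GAS6, PROS1, AXL, MERTK and TYRO3 encode the TAM ligands and receptors, and their mRNA was followed through acquired resistance to Talazoparib in PSN1 cells. The 5 genes were taken by symbol from the 20241 protein-coding genes of the deposited RNAseq table. They were chosen by the GAS6 values, which differed strongly between resistant cells kept in drug and resistant cells taken off it, so the GAS6 values and every TalaR-M against TalaR-DF value of these genes are given below as a description, without a test. PSN1 is an established pancreatic ductal adenocarcinoma (PDAC) line, and Talazoparib is an inhibitor of the DNA repair enzymes PARP1 and PARP2. The 9 libraries used here, of 48 samples in the series, were 3 replicates each of 3 groups. Parental cells had not been selected in drug. TalaR-M cells had been selected for resistance and were maintained in 50 nM Talazoparib, with 4 months of drug given in the labels. TalaR-DF cells were the same kind of selected cells grown in drug-free media, for 4 weeks according to the methods of the study. The study reports that PSN1 cells regained nearly parental sensitivity to the drug over that time. The word resistant, used below for both groups, therefore names their selection and not the drug response of TalaR-DF cells. The study selected its resistant lines in rising drug concentrations, so both resistant groups share 1 selection history, and they are not separately derived resistant lines. RNA was harvested in triplicate, and nothing says that the replicates were separate selections, so that p-values measure only the spread between these samples.

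GAS6 (growth arrest-specific 6) and PROS1 (protein S, also an anticoagulant plasma protein) are secreted vitamin K-dependent proteins that bridge phosphatidylserine on dying cells and vesicles to the receptor tyrosine kinases TYRO3, AXL and MERTK. GAS6 binds all the TAM receptors and is the ligand of AXL, whereas PROS1 binds TYRO3 and MERTK. In macrophages and dendritic cells the receptors drive uptake of apoptotic cells and restrain innate signalling, and in carcinomas AXL is known as a marker of mesenchymal, drug-tolerant cells.

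The table holds log2 CPM, the log2 of a read count scaled to a fixed library total, and lists 0 where a gene lies at 1 CPM or less. The libraries held from 8387755 to 14973847 reads on genes above 1 CPM, and 1 CPM was worth from 6.97 to 14.5 reads. TalaR-M replicate 2 stood apart. Its Pearson correlation with the other TalaR-M libraries was 0.780, where those 2 had 0.994 with each other, and it was the shallowest library. Where leaving it out changed a call, turned a direction or moved a value of a named gene by over 1.5 times, the value without it is given as well. The 8 listed pancreatic carcinoma line markers were above 1 CPM in all 9 libraries. Of 10 macrophage markers, which belong to the cell type best known for MERTK, 6 (CD68, ITGAM, CD163, MRC1, TYROBP and AIF1) were listed at 0 in every library, at most 3 were above 1 CPM in any library, and their summed level was 121 to 125 CPM in parental, 37.4 to 70.6 CPM in TalaR-M and 19.6 to 21.0 CPM in TalaR-DF libraries. Of 10 fibroblast markers, THY1, FAP and ACTA2 were listed at 0 in every library, and the summed level was 1744 to 1821, 1223 to 3432 and 1165 to 1235 CPM in the same order. Of 8 endothelial markers, VWF and CLDN5 were listed at 0 in every library, and the sums were 49.6 to 53.3, 31.5 to 115 and 18.9 to 20.9 CPM. The part of these genes in the results was not tested.

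GAS6 was the member that differed most. It lies at chr13:113820549-113864076 on the minus strand of hg38 (GENCODE 44), where its canonical transcript has 15 exons and 2508 bases. In the parental libraries GAS6 was at 0.93, 1.16 and 0.98 log2 CPM, from 27, 30 and 25 reads. In TalaR-M it was at 3.91, 4.86 and 3.82 log2 CPM, from 235, 219 and 198 reads. In TalaR-DF it was listed at 0 in replicates 1 and 2 and at 0.03 log2 CPM in replicate 3, the latter from 12 reads. The 3 groups thus did not overlap, with TalaR-M above parental and parental above TalaR-DF. Full separation was common, at 49.8% of genes between TalaR-M and parental, 68.5% between TalaR-DF and parental and 40.8% between TalaR-M and TalaR-DF. The lowest TalaR-M library lay 2.67 log2 units above the highest parental library and 3.79 above the highest TalaR-DF library. The group means were 1.02 ± 0.12 in parental and 4.20 ± 0.58 log2 CPM in TalaR-M (SD, n = 3), a 9.04-fold difference that was 7.18-fold without TalaR-M replicate 2. Against TalaR-DF, with 1 CPM taken as the floor in each library, TalaR-M was at least 18.2-fold higher, or at least 14.5-fold without replicate 2, and parental cells were at least 2.02-fold higher. GAS6 in TalaR-DF cells was therefore below that of parental cells as well. In bulk RNA, fewer cells with GAS6 and less GAS6 mRNA in each cell cannot be told apart. The plot of log2 CPM by library shows all 5 genes on 1 axis.

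**Figure D1:**
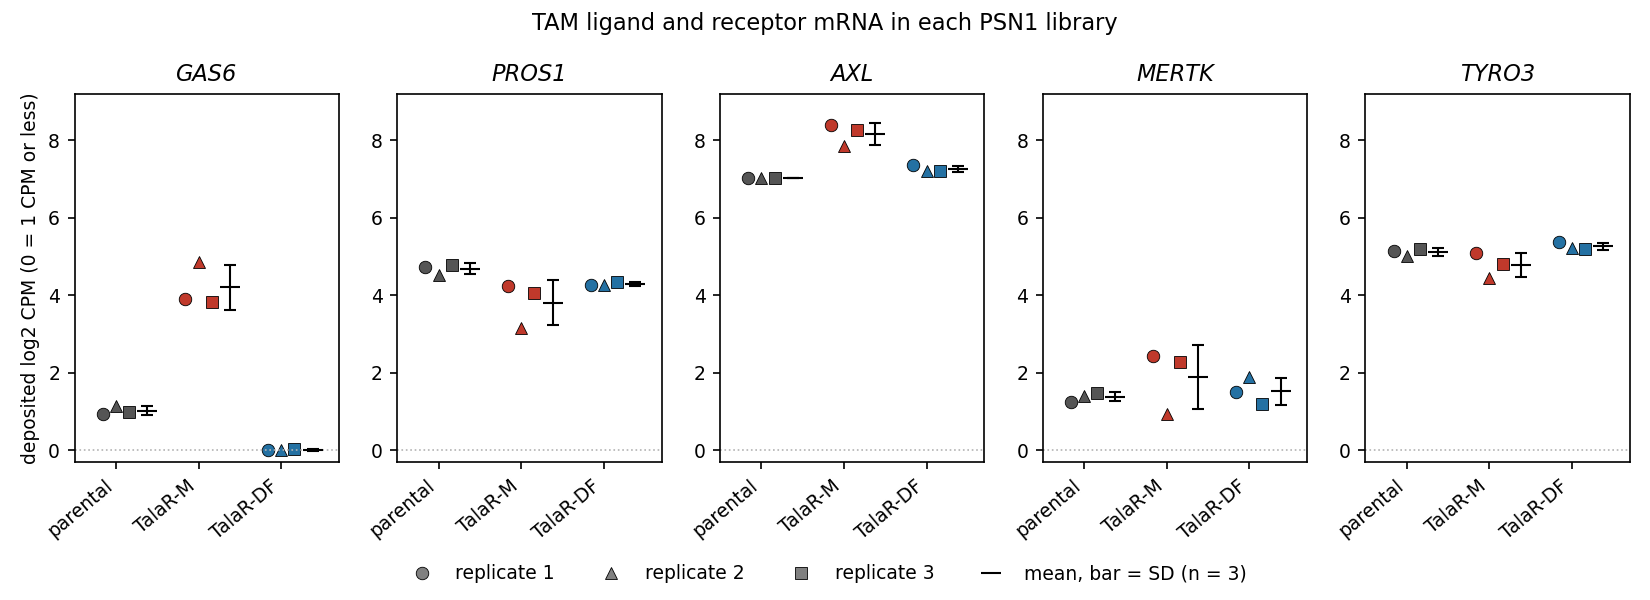
Deposited log2 CPM of GAS6, PROS1, AXL, MERTK and TYRO3 (y axis, 0 meaning 1 CPM or less) in the 3 parental, 3 TalaR-M and 3 TalaR-DF libraries of PSN1 cells; symbols mark the replicate number, and the dash and bar beside each group are the mean and SD (n = 3). GAS6 lies between 3.82 and 4.86 in TalaR-M and at 0.03 or less in TalaR-DF, AXL is above the other groups in TalaR-M, and TalaR-M replicate 2 (triangles) is the highest of its group for GAS6 and the lowest for the other genes.

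PROS1, the other ligand, had lower means in both resistant groups, by less than 1 log2 unit, and with all libraries passed the test in neither. It lies at chr3:93873051-93980003 on the minus strand, with a canonical transcript of 3372 bases. Its levels were 4.74, 4.52 and 4.79 log2 CPM in parental, 4.24, 3.14 and 4.05 in TalaR-M, and 4.25, 4.26 and 4.34 in TalaR-DF. All 6 resistant libraries were below all parental libraries, but TalaR-M replicate 2 was 1.00 log2 units under the mean of the other TalaR-M libraries. Separation from parental cells was seen in 49.8% of genes for TalaR-M and in 68.5% for TalaR-DF. The TalaR-M mean was 0.87 below the parental mean (SE 0.27), and limma gave an adjusted p of 0.0502 after Benjamini-Hochberg correction across 12471 genes. An adjusted p under 0.05 alone was reached by 23.6% of genes here and by 18.6% in TalaR-DF against parental cells. With TalaR-M replicate 2 left out the PROS1 difference was smaller, -0.54, and its adjusted p was 0.000657, the lowest of a range up to 0.16 over 18 alternative settings. Without replicate 1, which leaves replicate 2 as 1 of 2 libraries, it was -1.09 with an adjusted p of 0.0264, past the 2-fold limit used for calls. TalaR-DF cells were 0.40 below parental (SE 0.27, adjusted p 0.401 by limma), and this too passed the test without TalaR-M replicate 2 (adjusted p 0.00242). TalaR-M and TalaR-DF libraries were 0.47 apart with TalaR-M lower, and 0.14 apart without replicate 2. PROS1 has a pseudogene copy, PROS2P, on the same chromosome that is not in the table, and how reads common to both were assigned is not given in the sources used here.

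AXL was the highest of the 5, in CPM and per kilobase of transcript, and rose in TalaR-M cells. It lies at chr19:41219223-41261766 on the plus strand, with 20 exons and 4717 bases in the canonical transcript. Its levels were 7.03, 7.03 and 7.03 log2 CPM in the parental libraries, 8.39, 7.85 and 8.25 in TalaR-M, and 7.36, 7.21 and 7.21 in TalaR-DF. The 3 groups did not overlap, in the order parental, TalaR-DF, TalaR-M, a separation that is common among all genes, as given above. The TalaR-M mean of AXL was 1.13 log2 units (2.19-fold) above the parental mean, with SE 0.15 and a limma adjusted p of 0.00122. Without TalaR-M replicate 2, the lowest of its group, the difference was 1.29 with an adjusted p of 1.17e-09, and over 18 alternatives it ranged from 1.02 to 1.29 and kept an adjusted p of 0.0135 or less. In this comparison 13.3% of all genes tested passed an adjusted p of 0.05 with a change of at least 2-fold, 5.53% upward and 7.72% downward. Of the 4 members other than GAS6, only AXL was called by that rule. AXL in TalaR-DF was 0.23 above parental (SE 0.15, adjusted p 0.4 by limma), and without TalaR-M replicate 2 the same difference had an adjusted p of 0.00461. TalaR-M exceeded TalaR-DF by 0.90 log2 units, 1.87-fold, and by 1.06 without replicate 2.

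MERTK was scarce in every group. It lies at chr2:111898607-112029561 on the plus strand. MERTK was at 1.26, 1.41 and 1.49 log2 CPM in parental cells, at 2.44, 0.95 and 2.28 in TalaR-M, and at 1.50, 1.89 and 1.19 in TalaR-DF, with 14 reads in TalaR-M replicate 2 and from 28 to 84 reads in the other libraries. TalaR-M replicates 1 and 3 were above every parental and TalaR-DF library, whereas replicate 2 was below all of them. With all libraries the MERTK mean of TalaR-M was 0.50 above parental (SE 0.38, limma adjusted p 0.349). Without replicate 2 it was 0.97 higher with an adjusted p of 0.00056, just under the 2-fold limit, and over 17 alternatives the adjusted p ran from 0.000501 to 0.649. TalaR-DF differed from parental by 0.14 (SE 0.38, adjusted p 0.876).

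TYRO3, at chr15:41557675-41583589 on the plus strand, did not pass the test in either comparison. Its levels were 5.13, 5.01 and 5.19 log2 CPM in parental, 5.08, 4.45 and 4.81 in TalaR-M, and 5.36, 5.21 and 5.20 in TalaR-DF. The TalaR-M libraries overlapped the parental ones and lay below the TalaR-DF ones, and the lowest TalaR-DF library was 0.01 above the highest parental one. The TalaR-M mean was 0.34 below parental (SE 0.18, limma adjusted p 0.2) and 0.17 below it without replicate 2 (adjusted p 0.153). TalaR-DF was 0.14 above parental (SE 0.18, adjusted p 0.686). A processed pseudogene, TYRO3P, lies on the same chromosome and is not in the table either. In the comparison of TalaR-DF with parental cells 9.73% of all genes were called, 2.25% upward and 7.49% downward, and by limma 0 of the 4 members other than GAS6 was, either at that rule or at an unadjusted p under 0.05. Non-overlapping libraries were common: groups were fully separated in 49.8% of genes between TalaR-M and parental cells, in 68.5% between TalaR-DF and parental cells, and in 40.8% between TalaR-M and TalaR-DF cells. Without TalaR-M replicate 2, 60.6% and 64.3% of genes passed the adjusted p alone in the first and the second of these comparisons, so that an adjusted p of PROS1, AXL or MERTK gained there is shared with most genes.

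The starts of GAS6, AXL and PROS1 are shown because these were the member with the widest range, the member that was called and the other ligand. The windows run from 250 bases before to 50 bases after the RefSeq start (GRCh38.p14, the same assembly as hg38) and are written 5′ to 3′ on the strand of the gene. Capitals mark matches, on either strand, to the E-box CACCTG, a sequence bound by SNAI family repressors, and to the GC box GGGCGG, a sequence bound by SP1. The GAS6 window is chr13:113864027-113864326 on the minus strand, the AXL window chr19:41218973-41219272 on the plus strand and the PROS1 window chr3:93973847-93974146 on the minus strand.
GAS6: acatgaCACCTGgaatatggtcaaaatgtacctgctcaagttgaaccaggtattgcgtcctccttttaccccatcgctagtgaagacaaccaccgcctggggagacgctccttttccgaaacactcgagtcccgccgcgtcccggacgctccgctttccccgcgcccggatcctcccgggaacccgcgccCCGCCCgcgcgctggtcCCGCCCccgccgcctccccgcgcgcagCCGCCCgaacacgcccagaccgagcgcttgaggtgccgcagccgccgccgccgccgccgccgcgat
AXL: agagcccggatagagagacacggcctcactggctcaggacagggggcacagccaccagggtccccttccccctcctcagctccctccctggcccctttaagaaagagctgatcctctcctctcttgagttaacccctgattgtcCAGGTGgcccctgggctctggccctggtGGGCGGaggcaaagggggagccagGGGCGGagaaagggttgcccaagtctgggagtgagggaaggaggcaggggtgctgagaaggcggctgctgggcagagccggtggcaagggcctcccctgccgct
PROS1: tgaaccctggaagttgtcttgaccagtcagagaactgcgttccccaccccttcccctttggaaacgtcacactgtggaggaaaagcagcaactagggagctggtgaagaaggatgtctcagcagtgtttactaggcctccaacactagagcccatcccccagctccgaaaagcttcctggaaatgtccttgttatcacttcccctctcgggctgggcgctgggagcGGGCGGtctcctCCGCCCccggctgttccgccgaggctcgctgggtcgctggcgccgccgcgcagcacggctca
The GAS6 window held 1 E-box that begins 244 bases before the start and 3 GC boxes that begin 60, 43 and 16 bases before it. The AXL window held 1 E-box at 106 bases and 2 GC boxes at 78 and 54 bases before the start, and the PROS1 window held 2 GC boxes and no E-box. Among 35116 RefSeq promoter windows of the same length, 20.6% held the E-box and 45.0% the GC box, so these matches are common. Neither the AP-1 motif TGACTCA, found in 4.95% of windows, nor the TEAD motif CATTCC, found in 14.0%, occurred in these 3 windows, while a second RefSeq start of AXL, at chr19:41226505-41226804, held 1 TEAD match. The windows of MERTK and TYRO3 (its first start) held 5 and 3 GC boxes and none of the other motifs. GC content was 69.0% for GAS6, 66.0% for AXL and 61.0% for PROS1, where the quartiles over all windows were 47.0% and 68.0%. A match is a description of letters, and factor binding was not measured in these libraries.

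To compare genes with each other, CPM was divided by the length of the canonical transcript in kilobases. On this scale PROS1 was the main ligand mRNA in parental cells and in TalaR-DF, whereas in TalaR-M the 2 ligands were close in replicates 1 and 3 and GAS6 was ahead in replicate 2. GAS6 made up 8.79, 11.5 and 8.74% of the summed ligand mRNA in the parental libraries and 51.7, 81.6 and 53.5% in TalaR-M. In TalaR-DF its share was 6.35% in replicate 3 and at most 6.60 and 6.57% in replicates 1 and 2. The log2 ratio of GAS6 to PROS1 was -3.38, -2.94 and -3.38 in parental libraries and 0.10, 2.15 and 0.20 in TalaR-M. The shares in TalaR-M were thus 4 or more times those of any parental library, but which ligand was ahead depended on the length used and on 1 library. Scaled by coding length (2034 bases for GAS6 and 2028 for PROS1), the log2 ratio in TalaR-M was -0.33, 1.72 and -0.23, with PROS1 ahead in replicates 1 and 3.

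Among the receptors AXL dominated in every library. The summed receptor mRNA was 32.4 to 32.9 CPM per kilobase in parental libraries, 52.1 to 76.6 in TalaR-M and 36.6 to 40.6 in TalaR-DF. AXL contributed 83.9 to 85.5% of it in parental, 92.7 to 93.8% in TalaR-M and 84.9 to 85.8% in TalaR-DF libraries. TYRO3 contributed 12.4 to 13.8%, 5.03 to 5.49% and 12.5 to 12.6% in the same order. MERTK contributed no more than 2.63% in any library. The TalaR-M libraries, replicate 2 included, were separated from all others in the AXL and TYRO3 shares, whereas parental and TalaR-DF libraries overlapped in both. With coding length the AXL share was 76.8 to 79.0%, 89.6 to 90.7% and 78.5 to 79.2%, in the same order of groups. The plot of length-scaled levels shows the ligands and receptors library by library.

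**Figure D2:**
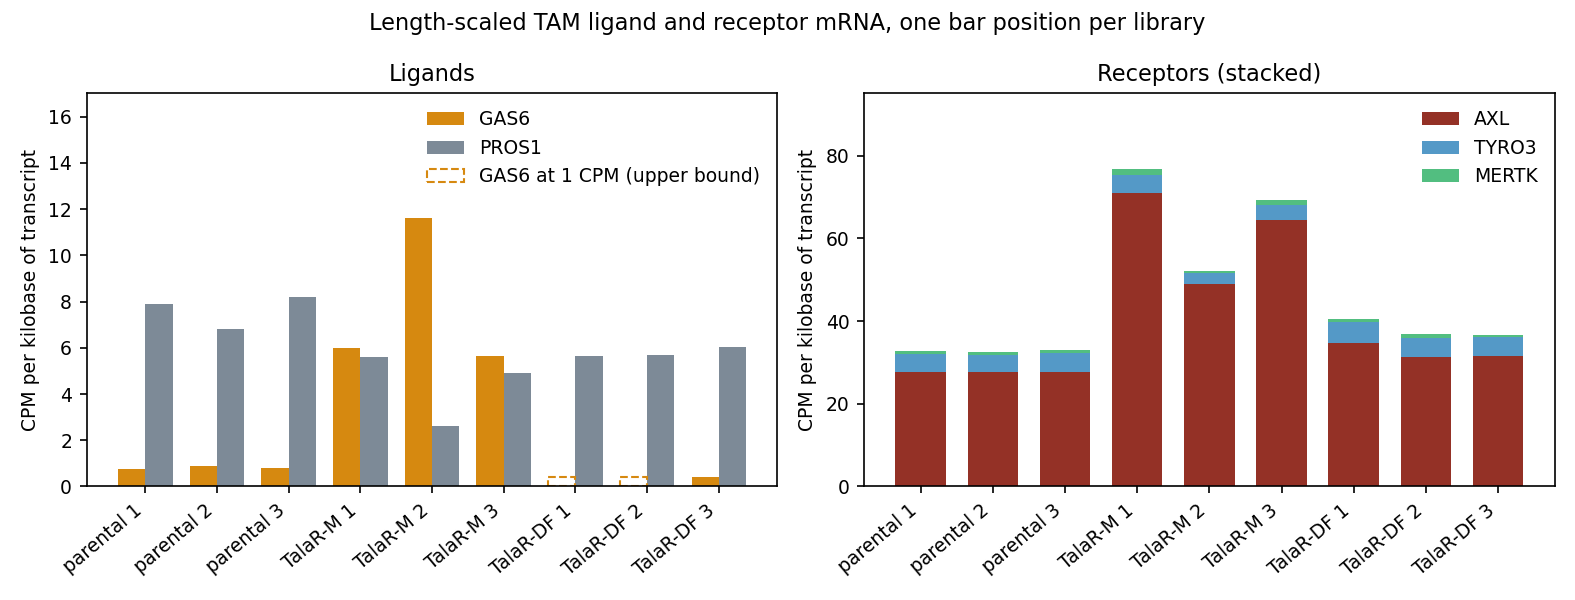
CPM per kilobase of canonical transcript (y axis) in each of the 9 libraries (x axis), with GAS6 and PROS1 side by side in the left panel and AXL, TYRO3 and MERTK stacked in the right panel; dashed bars stand for GAS6 at 1 CPM, the upper bound where it was listed at 0. GAS6 reaches the level of PROS1 only in the TalaR-M libraries, and the receptor sum, nearly all of it AXL, is highest there (52.1 to 76.6).

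The position of the TAM receptors among all receptor tyrosine kinases was also followed. Of 58 receptor tyrosine kinases listed, 37 passed the filter on low values and 17 were listed at 0 in all 9 libraries. In parental cells AXL was in place 5 by mean log2 CPM per kilobase of transcript (4.79 ± 0.0028, SD, n = 3), behind EPHB6 (5.56), RYK (5.02), EPHB4 and PTK7 (4.95), all higher in every parental library, and it was not separated from EPHA2 (4.79), whose libraries lay on both sides of it. In TalaR-M cells AXL was in place 1 in each of the 3 libraries, at 6.15, 5.61 and 6.01, and the next kinase was EPHA2, EPHB6 and EPHA2 in turn, from 0.55 to 1.21 log2 units below it. In TalaR-DF AXL was in place 2 in each library, 0.12 to 0.36 below RYK, an atypical Wnt receptor. With coding length AXL was in place 3 in parental cells, and again in place 1 in TalaR-M and place 2 in TalaR-DF. TYRO3 was in place 18, 18 and 17 and MERTK in place 27, 24 and 23 in parental, TalaR-M and TalaR-DF cells.

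**Figure D3:**
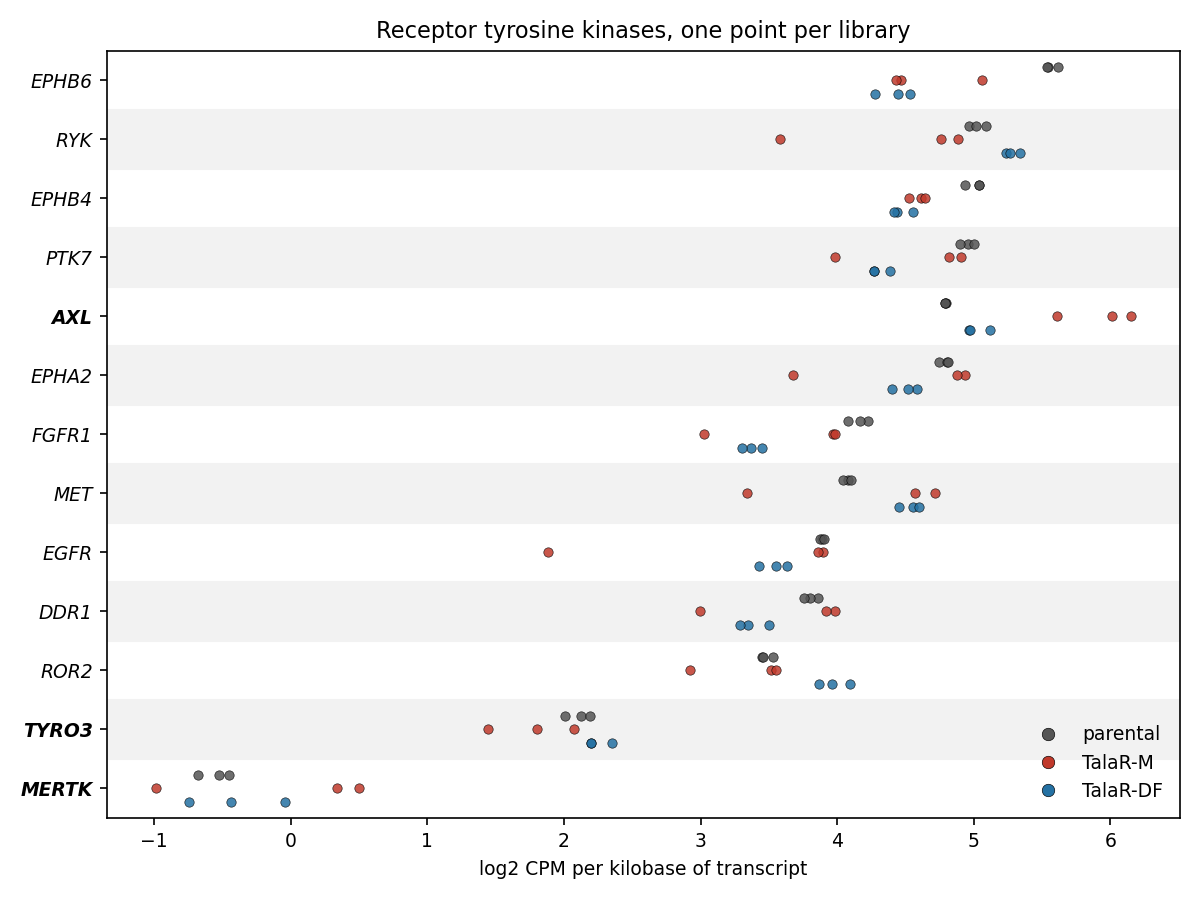
Log2 CPM per kilobase of transcript (x axis) of receptor tyrosine kinases (y axis, those among the first 9 in any group, with TYRO3 and MERTK added; TAM receptors in bold), with 1 point per library and colour for the group. The TalaR-M points of AXL (5.61 to 6.15) lie to the right of all other TalaR-M and TalaR-DF points, the lowest of them level with the highest parental point of EPHB6 (5.62), and the TalaR-M point on the low side of most kinases is replicate 2.

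Among the kinases other than the TAM receptors, EPHA3, PDGFRB and KDR were lower in both resistant groups. Against parental cells, 2 of the 37 were called higher in TalaR-M (AXL among them) and 7 lower, where 13.3% of all genes were called. With TalaR-M replicate 2 left out, 4 of 36 were called higher (AXL, ERBB2, INSR and ROR1) and 9 lower, beside 13.6% of all genes. EPHA3 fell from 4.93, 4.91 and 4.94 log2 CPM in parental libraries to 0.10 or less in TalaR-M (limma adjusted p 5.43e-06), and PDGFRB fell by 2.93 (adjusted p 0.000213). EPHA7 was called lower in TalaR-M as well (-1.54, limma adjusted p 0.0014). In TalaR-DF 2 were called higher and 6 lower (9.73% of all genes), and 2 and 7 without TalaR-M replicate 2. EPHA7 at 1.85 (adjusted p 0.000625) and INSR, the insulin receptor, at 1.06 (adjusted p 0.00525) rose there, while EPHA3 (-4.22, adjusted p 1.76e-05) and PDGFRB (-3.27, adjusted p 0.000141) fell by limma. These counts include 3 genes that passed the filter on low values only through the group where they were high, so they are given by their levels with no test. EPHA10, an ephrin receptor without kinase activity, was at 1.79, 1.76 and 1.65 log2 CPM in TalaR-M and listed at 0 in the other 6 libraries. CSF1R, the receptor of the macrophage growth factor CSF1, was at 1.68, 1.87 and 1.70 in parental libraries and listed at 0 in all 6 resistant ones. KDR, a receptor of the vascular growth factor VEGF, was at 3.85, 3.82 and 3.99 in parental libraries, at 2.33, 0 and 2.17 in TalaR-M and listed at 0 in TalaR-DF. Its TalaR-M mean was 2.38 below parental, and 1.63 below it without replicate 2.

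The genes around the TAM receptors were then examined, 117 in 10 lists, of which 89 passed the filter on low values. In TalaR-M against parental cells 12 of the 89 (13.5%) were called, 6 higher and 6 lower, where 13.3% of all genes were called. In TalaR-DF against parental cells 11 (12.4%) were called, 1 higher and 10 lower, against 9.73% of all genes. Their median log2 fold change was -0.23 in the first comparison and -0.05 in the second, beside -0.09 and 0.01 over all genes. Without TalaR-M replicate 2, 16 (18.0%) were called in TalaR-M, 11 higher and 5 lower, beside 13.6% of all genes, and their median turned to 0.06, beside 0.01 over all genes. Of the 12 called with all libraries 8 were called again, and the 8 added were CBLB, GAS2L3, ITGB3, JUNB, PLCG2, PRRG4, TIMP3 and TUB. In TalaR-DF 12 (13.5%) were then called, 1 higher and 11 lower, beside 11.5% of all genes. These were the 11 called with all libraries and ITGB3.

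Among genes of the vitamin K cycle and propeptide cleavage, which make GAS6 and PROS1 functional, 2 of 9 tested were called higher and 1 lower in TalaR-M against parental cells. In TalaR-DF limma called 0, with 4 at an unadjusted p under 0.05. NQO1, a quinone reductase, was at 7.55, 7.50 and 7.52 log2 CPM in parental libraries and at 8.81, 9.63 and 8.59 in TalaR-M (log2 fold change 1.49, adjusted p 0.00343). AIFM2, a reductase of coenzyme Q and vitamin K, rose by 1.40 (adjusted p 0.0137), and FURIN, the protease that removes propeptides, fell by 1.06 (adjusted p 0.00859). The AIFM2 and FURIN calls rested on TalaR-M replicate 2, since without it the changes were 0.99 and -0.80, short of the 2-fold limit, though each group pair still did not overlap. In TalaR-DF against parental cells, NQO1 (0.91, limma adjusted p 0.0372) and FURIN (-0.76, adjusted p 0.0418) passed the adjusted p under the 2-fold limit. AIFM2 was 0.70 above parental there (adjusted p 0.184). GGCX, the carboxylase that acts on GAS6 and PROS1, was at 4.54, 4.33 and 4.52 in parental, 5.10, 5.32 and 4.90 in TalaR-M and 4.45, 4.26 and 4.27 log2 CPM in TalaR-DF libraries. GGCX in TalaR-M was 0.64 above parental with an adjusted p of 0.0199, under the 2-fold limit. VKORC1, which recycles vitamin K, was at 2.58, 2.64 and 2.86 log2 CPM in parental, 1.96, 4.70 and 1.83 in TalaR-M and 2.25, 1.58 and 2.06 in TalaR-DF libraries. All TalaR-DF libraries and TalaR-M replicates 1 and 3 were below every parental library, and TalaR-M replicate 2 was above them. With all libraries VKORC1 did not pass the limma test (0.13 with adjusted p 0.9 in TalaR-M, -0.73 with adjusted p 0.568 in TalaR-DF). Without TalaR-M replicate 2 it passed the adjusted p in both, under the 2-fold limit (-0.80 with adjusted p 0.00204, and -0.73 with adjusted p 0.00151).

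Of the other vitamin K-dependent Gla proteins, 8 of 12 were listed at 0 in every library, the clotting factors F2, F7, F9 and F10 among them, and 3 were tested. MGP, an inhibitor of calcification, was called higher in TalaR-M, at 4.66, 5.95 and 4.38 log2 CPM against 1.74, 2.01 and 2.08 in parental libraries (log2 fold change 3.05, adjusted p 0.00129). In TalaR-DF it was at 1.97, 1.03 and 1.86. As for GAS6, MGP was high in each TalaR-M library and low in all others. Among 5 protein S partners, 1 was called higher in TalaR-M and 2 were called lower in TalaR-DF. C4BPB, the chain of C4b-binding protein that holds protein S in plasma, was at 3.37, 4.61 and 3.05 log2 CPM in TalaR-M (adjusted p 0.000304), at 0.45 or less in the parental libraries and at 0.14 or less in TalaR-DF. In TalaR-DF, THBD (thrombomodulin) fell by 1.14 (adjusted p 0.025) and PROCR, the endothelial protein C receptor, fell by 1.07 (adjusted p 0.00457). PROCR was lower in TalaR-M too, under the 2-fold limit (-0.67, limma adjusted p 0.0321), and THBD differed there by 0.20 (adjusted p 0.627).

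Of 5 genes of receptor shedding, RHBDF2 was called lower in TalaR-M (log2 fold change -1.07, adjusted p 0.00407, and -0.88 without replicate 2) and RHBDF1 in TalaR-DF (-1.36, adjusted p 0.000371), both being inactive rhomboids that escort ADAM17. RHBDF1 was lower in TalaR-M too, under the 2-fold limit (-0.80, limma adjusted p 0.00521). RHBDF2 in TalaR-DF differed by -0.33 (adjusted p 0.293). ADAM10 and ADAM17, the proteases that shed AXL and MERTK, did not pass the test in TalaR-M (-0.65 with adjusted p 0.328, and -1.91 with adjusted p 0.183). ADAM17 was at 5.72, 1.64 and 5.75 log2 CPM in TalaR-M. Without replicate 2 the differences were -0.0037 (adjusted p 0.968) for ADAM10 and -0.54 (adjusted p 1.04e-05) for ADAM17. TIMP3, an inhibitor of these proteases, was at 2.37, 0 and 2.61 log2 CPM in TalaR-M and was the only one of the 5 called there without replicate 2 (log2 fold change 2.01, adjusted p 0.000147). Of 6 phosphatidylserine exposure and flipping genes, limma called 0 in either comparison with parental cells, with 2 at an unadjusted p under 0.05 in TalaR-M and 0 in TalaR-DF. Those 2 were XKR8 (0.68, adjusted p 0.0142, under the 2-fold limit) and ANO6 (-1.58, adjusted p 0.0501). Without replicate 2 ANO6 was -0.90 (limma adjusted p 1.25e-07). Of 5 genes of the TAM innate brake, limma also called 0, with 1 and 0 at an unadjusted p under 0.05. Of 23 TAM signalling partners, VAV3, a guanine nucleotide exchange factor, was at 1.80, 1.82 and 2.21 log2 CPM in parental libraries and listed at 0 in all 6 resistant libraries. It is among the genes counted as lower in both comparisons, but it passed the filter on low values only through the parental libraries and is given no test. PLCG2, a phospholipase C, was called higher in TalaR-DF (1.99, adjusted p 0.0159), and in TalaR-M it was called higher only without replicate 2 (1.32, adjusted p 3.87e-05).

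Among 11 other engulfment receptors and bridging proteins, LRP1, a scavenger and engulfment receptor, fell from 7.33, 7.18 and 7.31 log2 CPM in parental libraries to 5.28, 3.89 and 5.47 in TalaR-M and 3.75, 4.49 and 3.85 in TalaR-DF (limma adjusted p 0.00349 and 0.000831). MFGE8, a secreted bridge between phosphatidylserine and integrins, was at 5.04, 4.98 and 5.12 in parental, 4.58, 4.82 and 4.64 in TalaR-M and 3.26, 2.93 and 3.17 log2 CPM in TalaR-DF. MFGE8 fell in TalaR-DF by 1.92 (adjusted p 5.1e-05) and differed by -0.36 in TalaR-M (adjusted p 0.11). ITGB3, an integrin chain, was called lower in both resistant groups only without TalaR-M replicate 2 (-1.32 with adjusted p 4.67e-08 in TalaR-M, -1.69 with adjusted p 1.1e-09 in TalaR-DF). MEGF10, another engulfment receptor, was listed at 0 in the parental libraries and was at 1.94, 0.34 and 1.83 in TalaR-M (adjusted p 0.0341). MEGF10 in TalaR-DF was 0.94 above parental (limma adjusted p 0.139, and 7.12e-05 without TalaR-M replicate 2). Of 5 growth arrest-specific genes other than GAS6, GAS7 was called lower in TalaR-DF (-1.02, adjusted p 0.045), and in TalaR-M limma called 0, with 0 at an unadjusted p under 0.05. GAS2L3 was called higher there only without TalaR-M replicate 2 (1.16, adjusted p 5.02e-06 by limma).

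Of 17 AXL transcriptional partners, 1 was called higher and 2 lower in TalaR-M, and 3 were called lower in TalaR-DF. FOSB, a subunit of AP-1, rose by 1.66 in TalaR-M (adjusted p 0.00441), and in TalaR-DF it was 0.98 above parental (limma adjusted p 0.0518). SP1, which binds GC boxes, fell by 1.64 (adjusted p 0.0206) and WWTR1 (TAZ), a partner of the TEAD factors, fell by 1.14 (adjusted p 0.00515). Without replicate 2 the SP1 difference was -1.08, and that of WWTR1 was -0.90 and no longer called. In TalaR-DF the AP-1 subunits JUN (-1.24, adjusted p 0.0047) and JUNB (-1.08, adjusted p 0.00815) and TEAD2 (-1.36, adjusted p 0.000417) fell, all by limma. TEAD2 (-0.59, limma adjusted p 0.0235) and JUNB (-0.86, adjusted p 0.0198) were lower in TalaR-M too, under the 2-fold limit. JUN differed there by -0.32 (adjusted p 0.298). JUNB in TalaR-M was called lower only without replicate 2 (-1.10, adjusted p 2.07e-08).

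**Figure D4:**
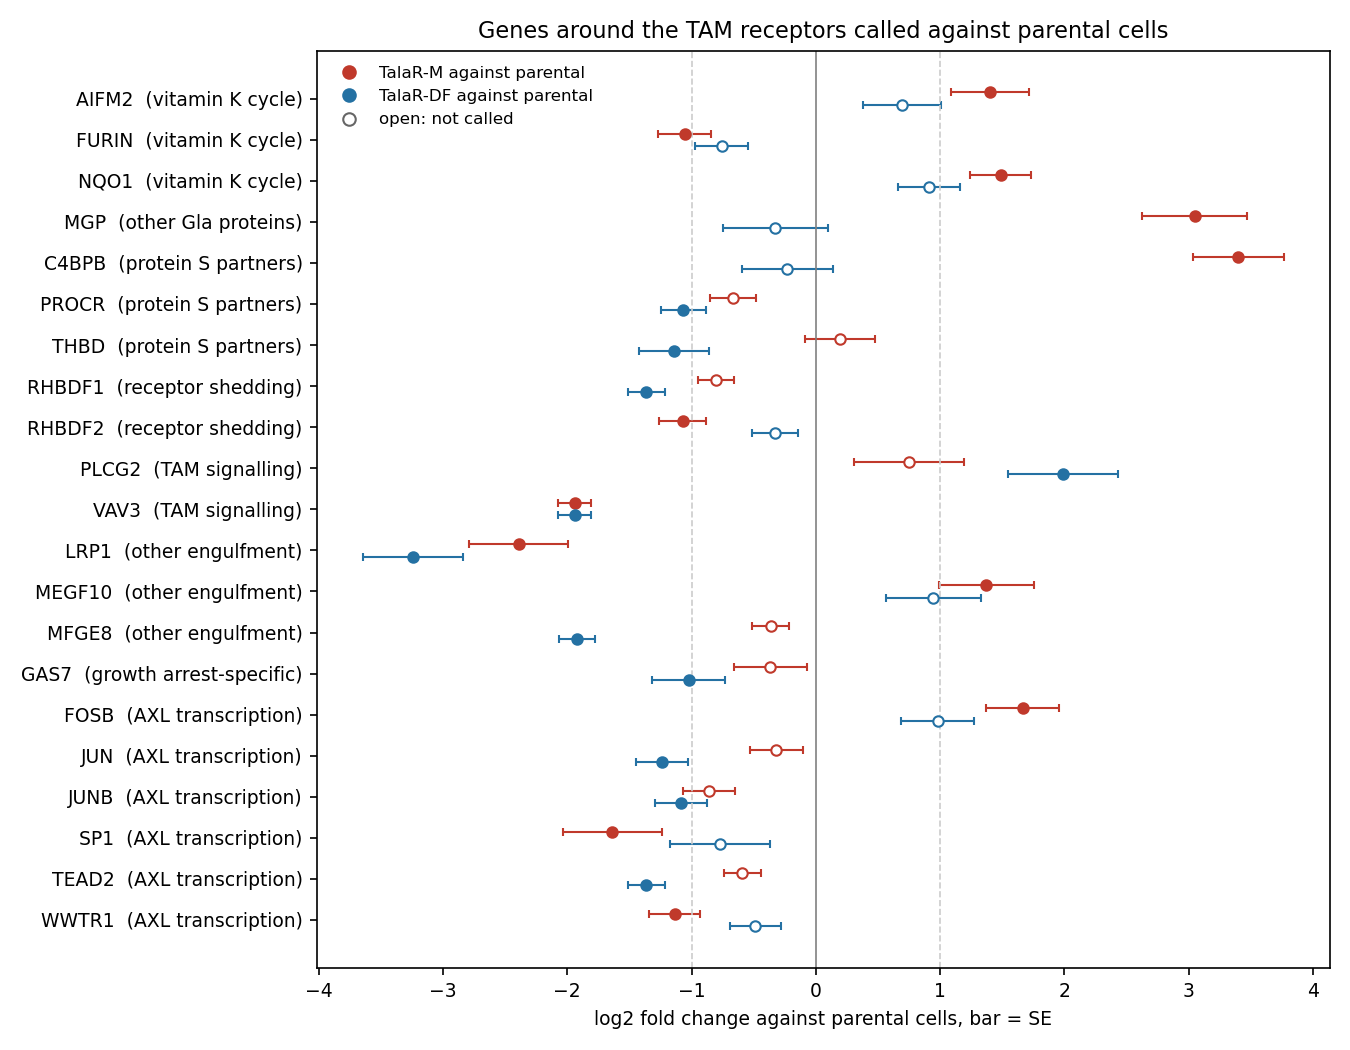
Log2 fold change against parental cells (x axis, bars are SE) of the 21 genes of the 10 lists that were called in TalaR-M or in TalaR-DF (y axis, list in brackets); filled points were called (adjusted p under 0.05 and at least 2-fold, dashed lines) and open points were not. MGP and C4BPB lie at 3.05 and 3.40 in TalaR-M and near 0 in TalaR-DF, while LRP1 is lower in both. VAV3 is drawn filled in both comparisons, but it passed the filter on low values only through the parental libraries and is given no test.

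Between TalaR-M and TalaR-DF, the contrast by which GAS6 was chosen, 4 of the 89 list genes (4.49%) were called, all higher in TalaR-M, where 6.93% of all genes were called, 5.29% higher in TalaR-M. They were C4BPB (log2 difference 3.63), MGP (3.37), MFGE8 (1.56) and THBD (1.34). Without TalaR-M replicate 2, 10 of the 89 were called, beside 8.01% of all genes, all higher in TalaR-M, and these 4 were among them.

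The nearest tested neighbours of GAS6 had means below their parental level in TalaR-M cells, and the part of the region in the GAS6 difference was not tested. RASA3, the nearest tested gene on one side at 113707 bases, fell by 1.37 in TalaR-M (limma adjusted p 0.00366), and TMEM255B, 3554 bases away on the other side, was at a mean of 1.01 log2 CPM in parental cells and at or next to 0 in TalaR-M and TalaR-DF. TMEM255B passed the filter on low values only through the parental libraries and is given no test. Within 1 Mb of GAS6 13 other genes were tested, of which 1 (ADPRHL1) was called higher and 2 lower in TalaR-M. The 2 lower genes were RASA3 and TMEM255B, so this count includes the gene that is given no test. Of all genes 13.3% were called in this comparison. The median log2 fold change of the 13 was -0.62, beside -0.09 over all genes. Between TalaR-M and TalaR-DF, limma called 0 of the 13 higher (1 at an unadjusted p under 0.05) and 2 lower. Of all genes 6.93% were called there, 5.29% higher and 1.64% lower in TalaR-M. The highest difference among the 13 was 0.71. Leaving out TalaR-M replicate 2 gave a median of -0.26 against parental cells, beside 0.01 over all genes. Neither of the 2 lower calls between TalaR-M and TalaR-DF was then kept. Next to AXL, HNRNPUL1, 730 bases away, did not pass the test in TalaR-M against parental cells (-0.44, adjusted p 0.24, and -0.12 without replicate 2). CYP2S1, a cytochrome P450 gene at 11684 bases, was called lower in TalaR-DF (-1.69, adjusted p 0.000397). Between TalaR-M and TalaR-DF limma called CYP2S1 higher in TalaR-M (1.24, adjusted p 0.00392). HNRNPUL1 differed there by -0.34 (limma adjusted p 0.362), and by -0.02 without replicate 2. The antisense gene GAS6-AS1 overlaps GAS6 and is not in the protein-coding table. The libraries were stranded, but whether the counting used strand is not given in the sources used here.

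Genes with the pattern most like each member were ranked by Pearson's r over the 9 libraries, which share their group means and the deviation of TalaR-M replicate 2. For GAS6 they were ZNF563 (0.993), HLA-DRB5, CUEDC1, SMPD1 and CAMSAP3 (0.991 each). HLA-DRB5, whose reads can be confused with those of other HLA-DRB genes, was at a mean of 3.64 log2 CPM in parental, 6.55 in TalaR-M and 2.08 in TalaR-DF, and SMPD1 (acid sphingomyelinase) at 3.21, 4.75 and 2.76. Over the 8 libraries without TalaR-M replicate 2 the first 5 were C1S, FOXN3, MAN2B1, FBXL5 and PRKAG2, and 0 of the 5 names were shared. C1S, a complement protease, was the first of them (r 0.996), at means of 2.68, 5.02 and 1.75 log2 CPM, the TalaR-M mean here including replicate 2. For AXL they were FBXO27 (0.997), TINF2 and PALMD, for PROS1 MTF2 (0.994), KLHDC10 and SLX4IP, for MERTK NRDE2 (0.964), ELFN2 and BPHL, and for TYRO3 CYP1A1 (0.977), TCF3 and ZNF670. FBXO27 and MTF2 were again among the first 3 without replicate 2.

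How TalaR-M replicate 2 touched each member was measured against genes of like length and base composition. Its difference from the mean of the other TalaR-M libraries fell with transcript length, from a median of 1.38 in the shortest decile of genes to -1.45 in the longest, and rose with GC content, from -1.12 in the lowest to 0.79 in the highest decile. For GAS6 the difference was 1.00, above the upper quartile of its length decile (0.49) and within the quartiles of its GC decile (0.11 to 1.47), its transcript having 63.6% GC. For PROS1 it was -1.0, for MERTK -1.41, for AXL -0.47 and for TYRO3 -0.49. Among genes in both the same length decile and the same GC decile, the quartiles were 0.33 to 1.12 for GAS6, -1.30 to -0.30 for PROS1, -1.47 to -0.55 for MERTK, -1.26 to -0.22 for AXL and -1.84 to -0.64 for TYRO3. The first 4 members lay within these ranges and TYRO3 just above. No other library had a gap of more than 0.26 log2 units between the shortest and the longest decile, where that of TalaR-M replicate 2 was 2.83.

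**Figure D5:**
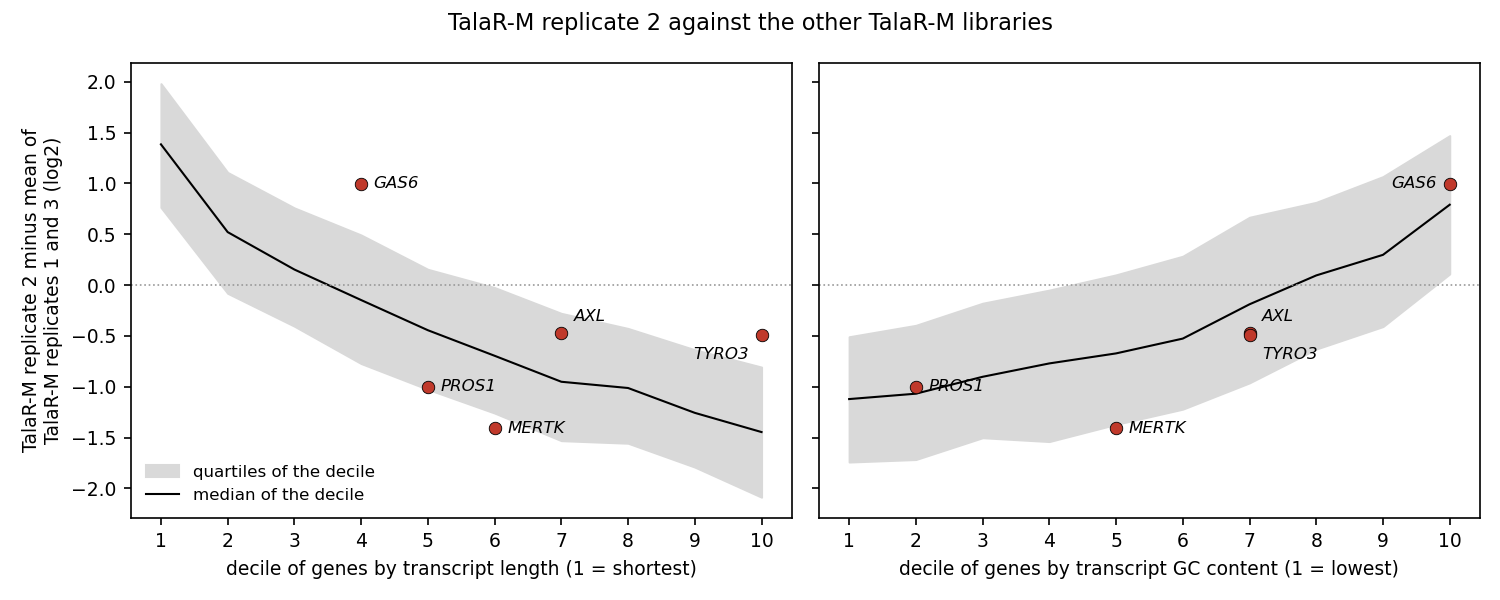
Difference in log2 CPM between TalaR-M replicate 2 and the mean of TalaR-M replicates 1 and 3 (y axis) by deciles of genes ordered by transcript length (left) and transcript GC content (right); the line is the median and the band the quartiles of each decile, and red points are the 5 members. The median falls from 1.38 to -1.45 with length and rises from -1.12 to 0.79 with GC content, and GAS6, at 1.00, is inside the band by GC content and above it by length.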

How the data were processed

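For the 9 PSN1 libraries the authors sequenced RNA as stranded poly(A) libraries with paired reads of 150 bases. Per the labels the genome build was hg38. The aligner, counter, annotation and statistical model are not given in the sources used here. The deposited values are log2 CPM, limited to protein-coding genes. By their steps, a prior count of about 1 read was added and values under 0 were set to 0. The column names (maintain, withdraw) were matched to the sample titles for TalaR-M and TalaR-DF. Whole reads were recovered from the steps, with a tolerance of 0.05 reads for values under 50 CPM, and used for depth only.

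Genes above 1 CPM in at least 3 of 9 libraries (12471) entered limma (version 3.58.1, R 4.3.3). All 3 groups entered 1 model, with a mean-variance trend and Benjamini-Hochberg adjustment. Genes were called at an adjusted p under 0.05 if they also changed 2-fold or more. The procedure was tested on simulated data in which no library deviated as TalaR-M replicate 2 did. That test therefore does not cover this deviation. GAS6 and the members between TalaR-M and TalaR-DF were given no test. Fold changes are on the log2 scale with its floor at 1 CPM, which understates changes of low genes. Precision at low levels is limited by 6.97 to 14.5 reads per CPM.

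The members, the lists around them and the marker lists were chosen with earlier results of these data known. The text names the 5 members, the called genes of each list (at most 4 per direction, those with the largest change), 5 genes of vitamin K use and shedding, the genes nearest in pattern and position, and the first receptor tyrosine kinases. XKR8 and ANO6 are named for an unadjusted p under 0.05. Lengths, exons and positions came from GENCODE 44 and promoter windows from RefSeq. Alternatives were other pseudocounts, filters, thresholds, scalings and spreads, a replicate block and each library left out. Other cell lines and short treatments were not analysed here.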

Additional observations from a re-analysis of the deposited data

How the results depend on the processing

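AXL in TalaR-M against parental cells kept its direction and its call in 18 of 18 alternatives (1.02 to 1.29). TYRO3 did not pass the test in any of 18 in either comparison with parental cells, and the sign of MERTK in TalaR-DF turned (-0.04) without TalaR-DF replicate 2.

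With a pseudocount of 8 CPM 711, 426 and 272 genes were called in the comparisons of TalaR-M with parental, of TalaR-DF with parental and of the resistant groups with each other, and without a fold limit 2938, 2315 and 1502. In the last comparison 487 were called when its 2 groups were fitted alone and 560 at an adjusted p under 0.01. Leaving out 1 library gave 1156 to 1987, 842 to 1417 and 573 to 987, the lowest of the last without TalaR-DF replicate 3. Of the list genes, 10 were called between TalaR-M and TalaR-DF without TalaR-M replicate 2 and 8 after rescaling by median ratios, 2 alternatives added after seeing the data. That rescaling moved the median of all genes by about 0.1 log2 units in TalaR-M, from -0.09 to 0.01 against parental.

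PROS1 in TalaR-M against parental passed the adjusted p with 8 CPM (-0.60, adjusted p 0.0353), rescaling (-0.76, 0.023), no mean-variance trend (-0.87, 0.0477) and array weights (-0.57, 0.000917), and ranged from -1.09 to -0.54 with 1 library left out. In TalaR-DF against parental, with array weights and with 2 groups alone, limma gave PROS1 -0.40 (adjusted p 0.00227 and 0.00223) and AXL 0.23 (0.00205 and 0.00272). With 1 library left out these ranged from -0.48 to -0.35 and from 0.18 to 0.25. MERTK in TalaR-M was 0.93 with array weights (0.000501) and 0.23 to 0.97 with 1 library left out, and the 5 CPM filter gave it no value.

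GAS6 differences with 8 CPM were 1.41, -0.27 and 1.68 in the same order of comparisons. With 0.1 CPM those against TalaR-DF were -3.25 and 6.37, which treat values of 1 CPM or less as 0. With 1 library left out they ranged from 2.84 to 3.36, -1.06 to -0.95 and 3.86 to 4.38.

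The replicate numbers were not taken as pairs: deviations of same-numbered libraries correlated at -0.42 to 0.22, and a library deviated most like its own number in 5 of 18 cases. With a replicate block 1546, 1132 and 750 genes were called, AXL in TalaR-M had an adjusted p of 0.00483 and PROS1 0.0543, and no call of a member changed.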
